A study of Arabidopsis thaliana with 12 samples.

Results

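Arabidopsis shoots of lcs7, a mutant line of the proton pump gene AVP1, grown on 0.3 mM calcium were compared with shoots of the wild type Col-0 grown on 2 mM calcium. The comparison took the 3 arrays of each of these groups, 6 of the 12 arrays in the series, and every probe set that names 1 gene, which gave 13356 genes. The difference therefore holds the mutation and the low calcium supply together. The groups used were lcs7 on 0.3 mM calcium, lcs7 on 2 mM calcium and Col-0 (wild type) on 2 mM calcium. All plants were 14-day seedlings on Yamagami agar medium with sucrose under long days, the tissue was the shoot, and each group had 3 biological replicates on Affymetrix ATH1 arrays. The lcs7 arrays at 2 mM calcium show how far each difference was already there without the low supply. Col-0 on 0.3 mM calcium was not used, so a response of the wild type to low calcium and a response particular to the mutant cannot be told apart here. A single mutant line was measured, so the AVP1 mutation cannot be told apart from any other difference between the lines. Below, the mutation at 2 mM stands for lcs7 minus Col-0 at that supply. No analysed probe set names AVP1, so the mutation itself was not checked on the arrays.

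AVP1 is the pyrophosphate-driven proton pump of the vacuolar membrane, and works beside the vacuolar proton ATPase. The proton gradient they build drives sugar, ion and calcium exchangers into the vacuole, the main calcium store of a plant cell. Calcium released from such stores or entering from the wall is read by calmodulins and related sensors, which act in touch, wounding and immune signalling. Calcium also links pectins in the cell wall and takes part in photosystem function in the chloroplast.

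The joint difference was broad. Of 13356 genes 3983 (29.8%) passed limma's test at an adjusted p under 0.05, with 1760 (13.2%) higher and 2223 (16.6%) lower in lcs7 at 0.3 mM calcium. Calls within gene lists below are to be read against these shares. At 2 mM calcium lcs7 differed from Col-0 at 347 genes (2.6%), 218 higher (1.63%) and 129 lower (0.966%). Between lcs7 at 0.3 mM and lcs7 at 2 mM calcium 2936 genes (22%) passed, 1366 higher (10.2%) and 1570 lower (11.8%) at 0.3 mM. These comparisons share arrays, and the last is the test of whether the joint difference differs from that of the mutation at 2 mM. Falls were more frequent but smaller than rises: 344 genes (2.58%) rose at least 4-fold and 72 (0.539%) fell at least 4-fold, counted with group means under 20 raised to 20, since signals under 20 are near background. The arrays of the compared groups did not overlap for 6163 genes (46.1%), among them 3980 of the 3983 that passed (99.9%). The median difference of all genes was -0.10 on the log2 scale. Arrays were left out singly for the counts of each comparison and for the joint calls of gene lists and named genes. Calls of single genes at 2 mM or for low calcium in lcs7 were not rechecked in this way. With 1 array left out the joint count lay between 2980 and 3939. The count for lcs7 at 2 mM lay between 119 (without replicate 3 of lcs7 at 2 mM) and 287, and that for low calcium in lcs7 between 1856 (without replicate 3 of lcs7 at 0.3 mM) and 2796.

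Bright genes changed most often. Of 722 genes with a signal over 2000 in Col-0 at 2 mM calcium 62.9% passed, 49.4% lower and 13.4% higher, with a median difference of -0.41. Of 3200 genes with a signal under 20 there, 7.88% passed, 200 higher and 52 lower. Binned instead by the higher of the 2 group signals, genes under 20 passed in 2.86% of cases, 25 higher and 52 lower, and genes over 2000 in 67%, 226 higher and 357 lower. By location the nuclear chromosomes were alike, from 27.2 to 30.8% passing, whereas the plastid genome had 50.7%, all lower. Annotated pseudogenes passed in 6.27% of cases and protein-coding genes in 31.8%. The median SD between replicate arrays, over genes with a signal over 100, was 0.12 in lcs7 at 0.3 mM, 0.14 in lcs7 at 2 mM and 0.14 in Col-0 (log2 scale). In bulk shoots, fewer cells of a type and less RNA per cell cannot be told apart.

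**Figure D1:**
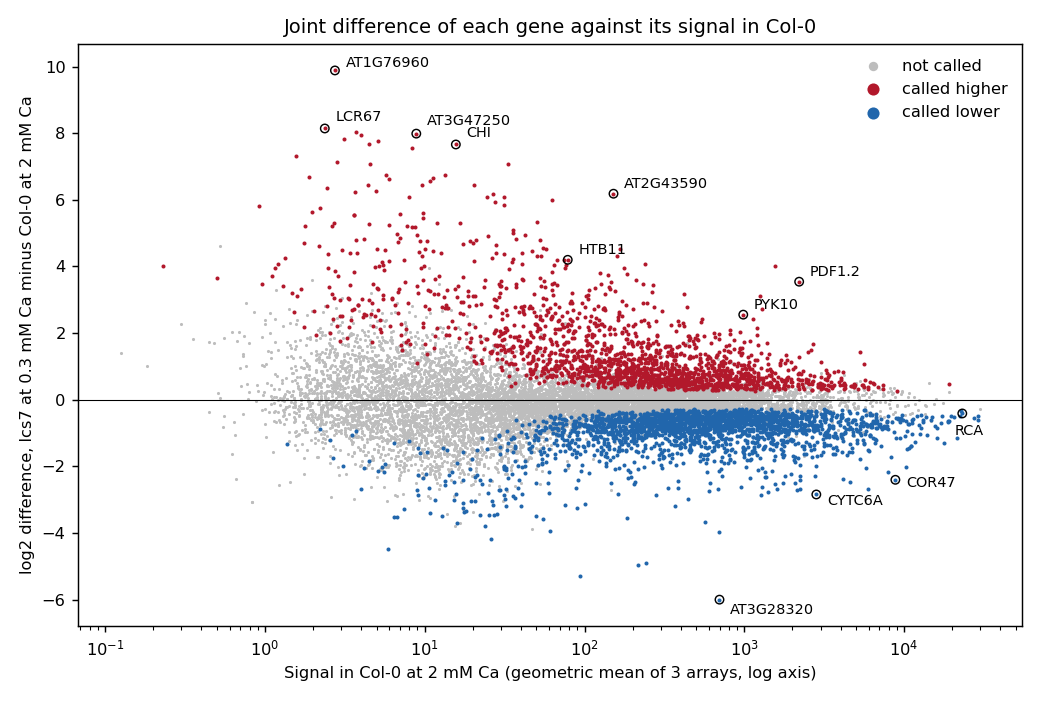
Each point is 1 of 13356 genes, placed by its signal in Col-0 at 2 mM calcium (log axis) and by the log2 difference of lcs7 at 0.3 mM minus Col-0 at 2 mM calcium, coloured by whether it was called higher, called lower or not called at an adjusted p of 0.05. The largest rises lie at genes with little signal in Col-0, such as AT1G76960 at 9.88, and called falls are dense among bright genes, such as COR47 at -2.40.

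Among the 15 largest rises were 3 genes annotated as a chitinase, an osmotin and a peroxidase. CHI, annotated as a putative chitinase (chitinases cut the chitin of fungal walls), had signals of 2758, 3498 and 3283 in lcs7 at 0.3 mM calcium, 69, 7.9 and 117 in lcs7 at 2 mM and 21.8, 5.4 and 32.5 in Col-0 at 2 mM. Every low-calcium array was more than an order of magnitude above all others, and the joint log2 difference was 7.66 ± 1.06 (SE, n = 3 arrays per group, adjusted p = 0.00192). OSM34, an osmotin of the thaumatin-like defence proteins, had 1406, 1702 and 1927 in lcs7 at 0.3 mM, 71.8, 87 and 49.1 in lcs7 at 2 mM and 41.2, 16.6 and 21.2 in Col-0. Its joint difference was 6.09 ± 0.36, adjusted p = 0.000115, and the difference at 2 mM, 1.47 ± 0.36, adjusted p = 0.1, did not pass. Prx37, a secreted-type peroxidase, had 1716, 2210.4 and 2474 in lcs7 at 0.3 mM, 31.5, 42.9 and 77.7 in lcs7 at 2 mM and 35.1, 31.5 and 27.8 in Col-0, a joint difference of 6.07 ± 0.32, adjusted p = 8.97e-05. In each of these genes the lcs7 arrays at 2 mM lay far nearer to Col-0 than to lcs7 at 0.3 mM.

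The other large rises carried only a locus name or belonged to jasmonate defence. AT4G12490 reached 3987, 4402 and 5169.9 in lcs7 at 0.3 mM, against 185.6, 124.1 and 940.4 in lcs7 at 2 mM and 30.2, 46.3 and 26.2 in Col-0. Its joint difference was 7.08 ± 0.70, adjusted p = 0.000548. At 2 mM its lcs7 arrays all lay above those of Col-0, but the difference (3.07 ± 0.70, adjusted p = 0.0789) did not pass. AT2G43590 was the brightest of them, with 10001, 12031 and 11109 in lcs7 at 0.3 mM, 267, 211 and 842 in lcs7 at 2 mM and 187, 156 and 119.9 in Col-0 (6.18 ± 0.49, adjusted p = 0.000263). AT4G16260 (6.00 ± 0.48) and AT1G54020 (6.73 ± 0.52) showed the same order of groups, with lcs7 at 2 mM not past the test against Col-0 (adjusted p = 0.527 and 0.55). A second set stood in between at 2 mM. AT3G28220 had 2263, 1234 and 2619.9 in lcs7 at 0.3 mM, 178, 239 and 209 in lcs7 at 2 mM and 17.5, 25.6 and 43.2 in Col-0, and both steps passed: 2.95 ± 0.39, adjusted p = 0.0133 for the mutation at 2 mM, and 3.23 ± 0.39, adjusted p = 0.002 for low calcium in lcs7. AT3G18250, AT1G57630 and AT3G28540 were of this kind, with joint differences of 6.46, 7.55 and 5.94 and differences at 2 mM of 3.27, 3.97 and 2.87, all past the test. Because CHI, AT1G57630 and AT1G54020 had mean signals under 20 in Col-0, the sizes of their differences are not well measured. With means raised to 20 these were 7.31, 6.29 and 6.15.

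AT1G76960 and AT3G47250 were nearly absent from Col-0 at 2 mM and high in lcs7 at both supplies. AT3G47250 had 2273, 2261 and 2193 in lcs7 at 0.3 mM, 1963, 1623 and 1804 in lcs7 at 2 mM and 20.5, 2.7 and 12.5 in Col-0. The lcs7 groups differed by 0.32 ± 0.66, adjusted p = 0.783, which did not pass, so the joint difference of 7.99 ± 0.66, adjusted p = 0.000305 (6.81 with means raised to 20) was close to the 7.66 ± 0.66, adjusted p = 0.0023 at 2 mM. AT1G76960 had 2932, 2618 and 2248 in lcs7 at 0.3 mM, 552, 605 and 751 in lcs7 at 2 mM and 1.9, 2.3 and 4.7 in Col-0, and here low calcium added 2.03 ± 0.33, adjusted p = 0.00562. HTB11, a histone H2B gene, also belonged to this kind: 1273, 1603 and 1466 in lcs7 at 0.3 mM, 1342, 1053 and 1215 in lcs7 at 2 mM, and 83.9, 72.9 and 78.9 in Col-0. Its joint difference was 4.20 ± 0.13, adjusted p = 2.27e-05, and that between the lcs7 groups was 0.27 ± 0.13, adjusted p = 0.211. The H2B genes HTB2 (0.45 ± 0.13, adjusted p = 0.0364) and HTB4 (0.41 ± 0.13, adjusted p = 0.0489) rose slightly, and HTB1 (-0.07 ± 0.17, adjusted p = 0.813) did not pass. Neither HTB2 nor HTB4 passed without replicate 1 or 3 of Col-0, replicate 1 or 3 of lcs7 at 2 mM, or replicate 2 or 3 of lcs7 at 0.3 mM.

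**Figure D2:**
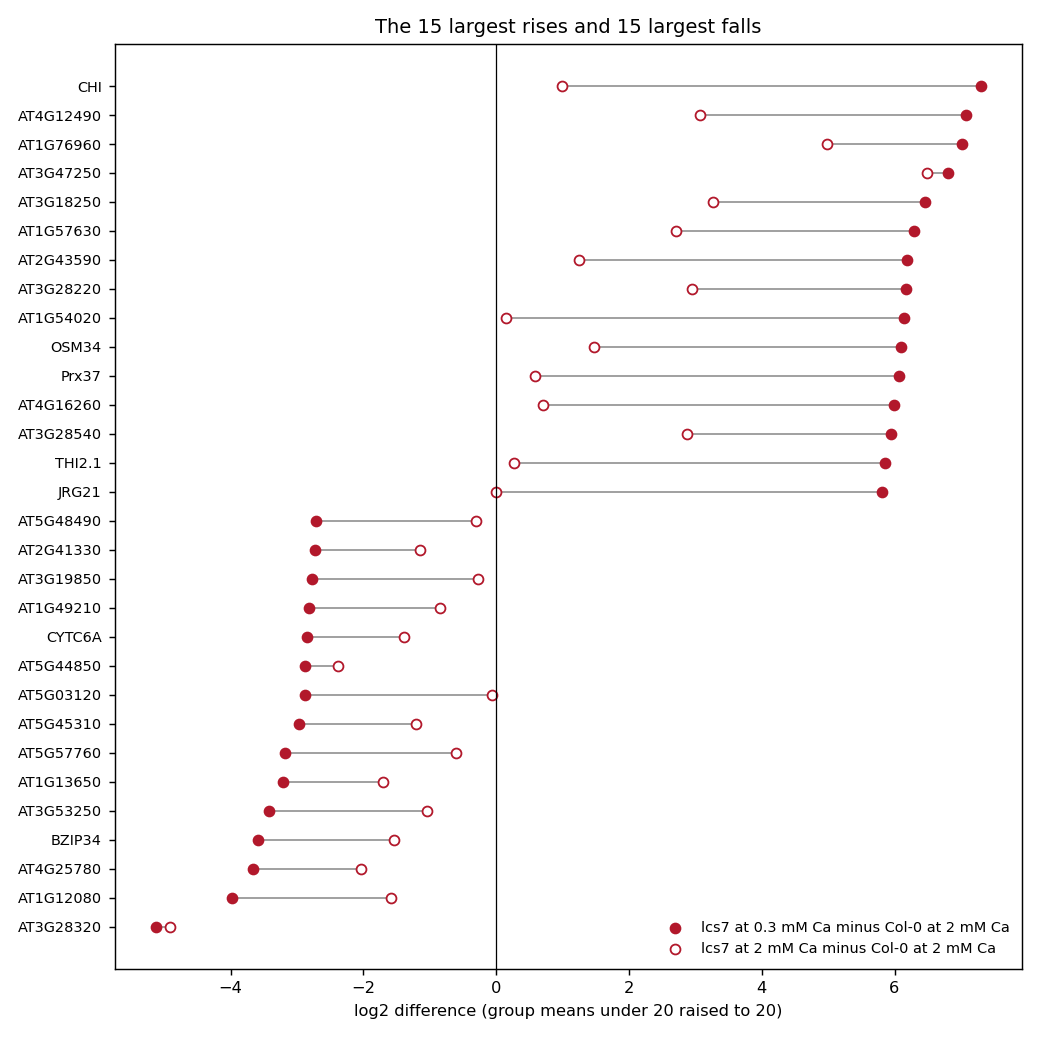
Filled points give the log2 difference of lcs7 at 0.3 mM minus Col-0 at 2 mM calcium and open points that of lcs7 at 2 mM minus Col-0 at 2 mM calcium, for the 15 largest rises and 15 largest falls, with group means under 20 raised to 20. Both points share the Col-0 arrays. For CHI they lie at 7.31 and 1.00, whereas for AT3G47250 (6.81 and 6.48) and AT3G28320 (-5.13 and -4.91) they nearly coincide.

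Calcium sensors rose. All 4 measured genes of the list for touch and early calcium responses rose, with a median difference of 4.50. AT1G76640, the calmodulin-like gene CML39, had 325, 135 and 339 in lcs7 at 0.3 mM, 2.3, 1.8 and 1.6 in lcs7 at 2 mM and 1.9, 1.1 and 1.8 in Col-0 (7.31 ± 0.39, adjusted p = 9.12e-05, or 3.62 with means raised to 20). CML37 had 318, 133 and 113 in lcs7 at 0.3 mM, 7.6, 1.4 and 2.2 in lcs7 at 2 mM and 3.4, 12.3 and 1.1 in Col-0 (5.55 ± 0.99, adjusted p = 0.00524, or 3.07 with means raised to 20). Both were at background in every array of 2 mM calcium. STZ, a zinc finger repressor of the stress response, had 5187, 2589.6 and 1903 in lcs7 at 0.3 mM, 561, 272 and 352 in lcs7 at 2 mM and 258, 211 and 361 in Col-0 (3.45 ± 0.43, adjusted p = 0.00128). Of 7 calmodulin-like genes listed by symbol 5 rose and 1 fell, with a median of 1.56, against 13.2% of all genes higher and 16.6% lower. CML39, with only a locus name here, is not among the 7, and CML37 and CML38 stand in both lists. CML38 (2.72 ± 0.23), CML41 (2.43 ± 0.14), CML43 (1.56 ± 0.16) and CML42 (0.59 ± 0.16) rose, CML30 fell (-1.23 ± 0.15, adjusted p = 0.00108), and CML23 (1.06 ± 0.46, adjusted p = 0.135) did not pass. The rise of CML42 was lost without replicate 2 of Col-0 or any 1 lcs7 array at 0.3 mM. None of the 7 passed between lcs7 and Col-0 at 2 mM calcium.

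Channels of the glutamate receptor-like family, which carry calcium across membranes, changed too: of 8 measured members 4 rose and 1 fell (median 0.84). GLR2.8 had 388, 274 and 292 in lcs7 at 0.3 mM, 58.7, 53.4 and 70 in lcs7 at 2 mM and 63.5, 36.9 and 43.8 in Col-0 (2.75 ± 0.23, adjusted p = 0.000334), and GLR2.7 rose by 2.59 ± 0.38. GLR1.4 (0.84 ± 0.20, adjusted p = 0.018) and ATGLR1.2 (0.85 ± 0.27, adjusted p = 0.0482) rose less, and GLR3.6 fell (-0.70 ± 0.19, adjusted p = 0.0288). Without replicate 2 or 3 of Col-0, or any 1 lcs7 array at 0.3 mM, 2 to 3 of these 5 calls were left. CaS, the calcium-sensing protein of the thylakoid membrane, fell: 2179.6, 2137 and 2255 in lcs7 at 0.3 mM, 4536, 5106 and 4121 in lcs7 at 2 mM, and 5227, 5304 and 4695 in Col-0 (-1.21 ± 0.11, adjusted p = 0.000401). Its groups did not overlap at 0.3 against 2 mM, and the lcs7 arrays at 2 mM lay among or just below those of Col-0 (-0.15 ± 0.11, adjusted p = 0.566). Of 15 genes for IQD proteins, which bind calmodulin and lie along microtubules, 6 fell and 1 rose (median -0.58), against 16.6% of all genes lower and 13.2% higher. iqd33 fell by 1.97 and iqd21 by 1.28 on the log2 scale, and IQD23 rose by 0.84 ± 0.17. Without any 1 of 5 arrays (an lcs7 array at 0.3 mM, or replicate 2 or 3 of Col-0) 3 of the 6 IQD falls passed.

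Genes of both salicylic acid and jasmonate signalling rose. GRX480, a glutaredoxin induced by salicylic acid, had 1649.7, 1206 and 1166 in lcs7 at 0.3 mM, 112, 73.5 and 102 in lcs7 at 2 mM and 87, 54.4 and 39.6 in Col-0 (4.53 ± 0.31, adjusted p = 0.00019). SAG101, a partner of EDS1 in immune signalling, rose by 1.58 ± 0.12, adjusted p = 0.000235, and these were the 2 measured members of that list. On the jasmonate side THI2.1, a thionin used as a jasmonate marker, had 1507, 2503 and 1558 in lcs7 at 0.3 mM, 37.2, 30.6 and 46 in lcs7 at 2 mM and 26.7, 41.9 and 27 in Col-0 (5.86 ± 0.28, adjusted p = 7.66e-05). Of the 4 measured genes of the jasmonate list 3 rose, THI2.1 with the defensins PDF1.2 and PDF1.2b, and 1 of these passed without replicate 1 or 3 of Col-0 or replicate 2 or 3 of lcs7 at 0.3 mM. JRG21, a jasmonate-regulated gene outside that list, rose by 6.65 ± 0.96 (5.81 with means raised to 20). JMT, which methylates jasmonate, had mean signals of 14.4 in lcs7 at 0.3 mM and 2.31 in Col-0, too near background to measure (2.64 ± 1.26, adjusted p = 0.166).

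The plant defensins, small antimicrobial peptides, rose in 4 of 13 cases and fell in none (median 0.49), against 13.2% of all genes higher and 16.6% lower. Of the others, 5 had signals under 20 in both groups, and the bright LCR68 (-0.19 ± 0.11, adjusted p = 0.241) and LCR69 (0.09 ± 0.14, adjusted p = 0.681) did not pass. LCR67, also named PDF1.1, had 559, 735 and 724 in lcs7 at 0.3 mM, 2.5, 9.1 and 25 in lcs7 at 2 mM and 4.1, 1.9 and 1.7 in Col-0 (8.14 ± 0.78, adjusted p = 0.000503, or 5.06 with means raised to 20). PDF1.4 rose by 3.62 ± 0.23, adjusted p = 0.000138. PDF1.2, the defensin commonly read as the joint jasmonate and ethylene response, had 26028, 26253 and 24728 in lcs7 at 0.3 mM, 555, 452 and 8454 in lcs7 at 2 mM and 2354, 3443 and 1318 in Col-0. Replicate 3 of lcs7 at 2 mM stood far above the other arrays of its group, and the same array was high for PDF1.2b, whose probe set is shared with related genes (778, 849 and 11457). The joint difference of PDF1.2 was 3.54 ± 1.06, adjusted p = 0.0412, and it no longer passed when any 1 of the 6 compared arrays was left out (adjusted p between 0.0688 and 0.119). Without replicate 3 of lcs7 at 2 mM calcium the adjusted p was 0.00137. Without replicate 3 of Col-0 or any 1 lcs7 array at 0.3 mM, 2 of the 4 defensin rises passed.

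Some WRKY transcription factors, subtilases and U-box ubiquitin ligases rose. WRKY53, a regulator of leaf senescence, had 1843, 1551 and 999 in lcs7 at 0.3 mM, 295, 108 and 167 in lcs7 at 2 mM and 160.0, 106 and 120.4 in Col-0 (3.48 ± 0.40, adjusted p = 0.000866). WRKY6 (2.41 ± 0.24) and WRKY47 (1.33 ± 0.11) rose and WRKY20 fell (-0.44 ± 0.13, adjusted p = 0.0412), so 3 of 6 WRKY genes rose and 1 fell (median 0.82). The fall of WRKY20 did not pass without replicate 1, 2 or 3 of Col-0, replicate 2 of lcs7 at 2 mM, or any 1 lcs7 array at 0.3 mM. Of 9 subtilases, serine proteases of the cell wall space, 4 rose and 1 fell, the fall not passing without replicate 2 or 3 of Col-0 or replicate 1 of lcs7 at 0.3 mM. SBT3.3, known from immune priming, had 342, 393 and 371 in lcs7 at 0.3 mM, 42.6, 52.8 and 53.5 in lcs7 at 2 mM and 37.4, 8.9 and 25.6 in Col-0 (4.17 ± 0.47, adjusted p = 0.000861). The U-box ubiquitin ligases PUB23 (3.37 ± 0.43, adjusted p = 0.00136) and PUB24 (2.25 ± 0.17, adjusted p = 0.000251), which dampen immune signalling, rose, and the other 7 of 9 U-box genes did not pass. Hsp70-2, a heat shock chaperone, had 1673, 1743 and 1858 in lcs7 at 0.3 mM, 349, 218 and 379 in lcs7 at 2 mM and 288, 305 and 144 in Col-0 (2.91 ± 0.33, adjusted p = 0.000833).

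**Figure D3:**
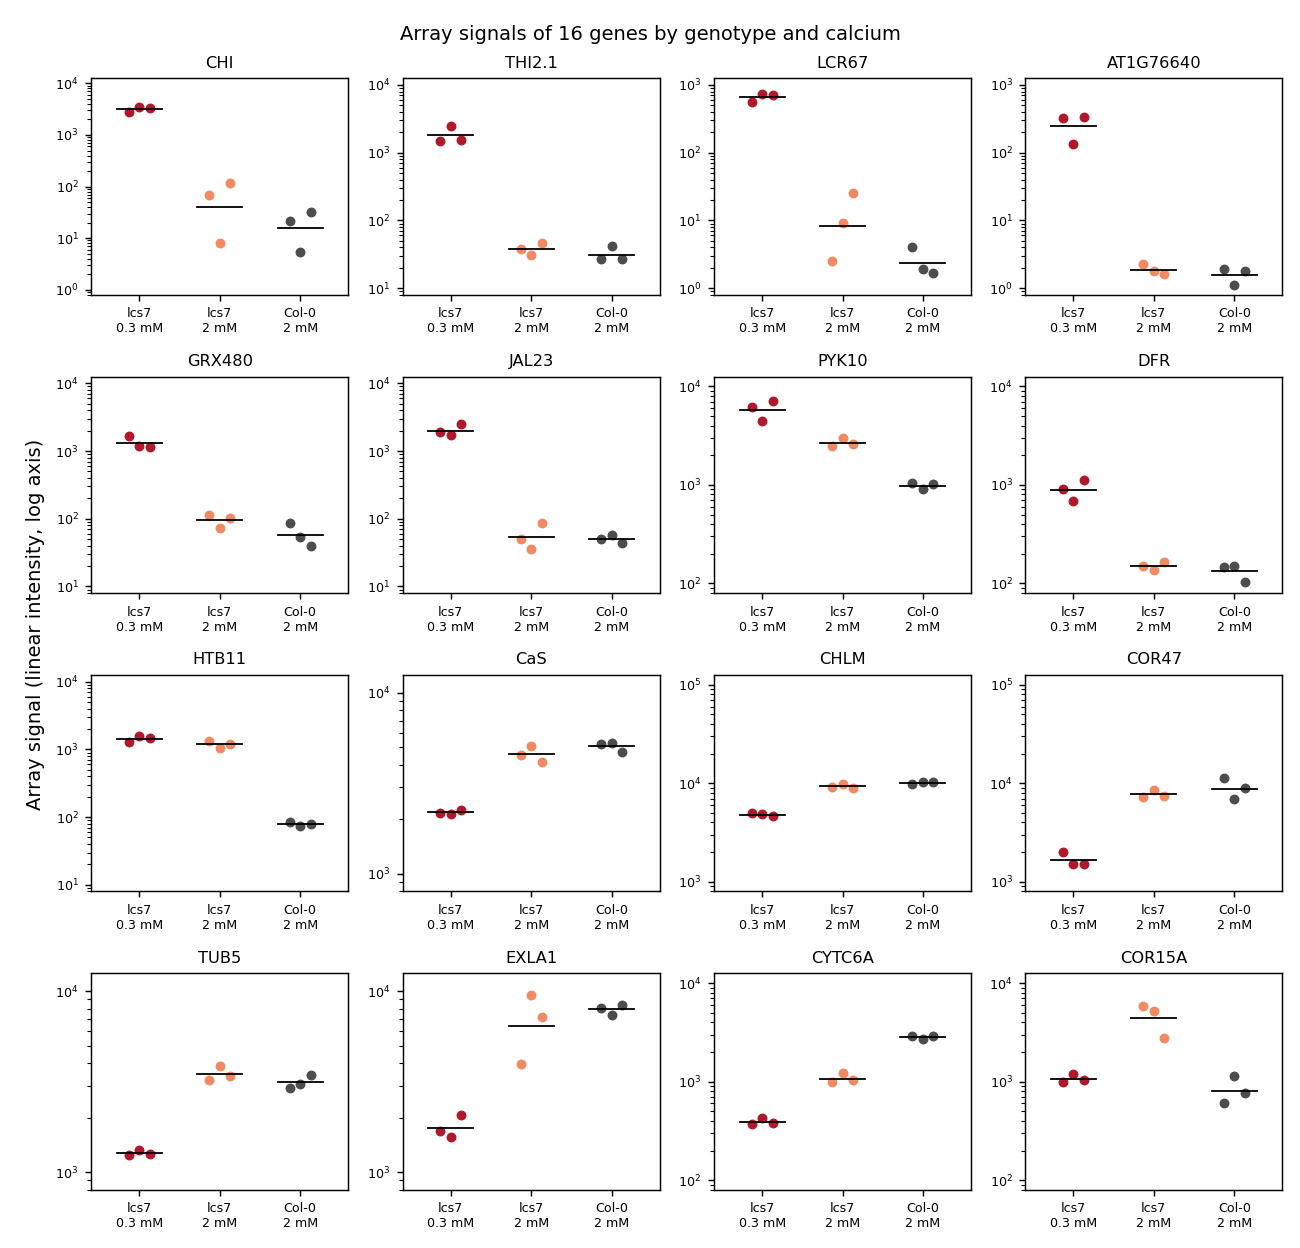
Points are array signals (linear intensity, log axis) and bars their geometric means, n = 3 arrays, in lcs7 at 0.3 mM, lcs7 at 2 mM and Col-0 at 2 mM calcium, for 16 genes. THI2.1, AT1G76640 and JAL23 are high only in the first group of these 3, PYK10 steps through the groups with means of 5778, 2670.2 and 984, HTB11 is high in both lcs7 groups, and COR15A is highest in lcs7 at 2 mM with a mean of 4400.1.

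Many UDP-glycosyltransferases, which attach sugars to hormones and secondary compounds, rose. Of 47 measured 21 rose and 3 fell (median 0.88). With 1 array left out the rises numbered 14 to 19. The falls numbered 0 to 1 without replicate 2 or 3 of Col-0 or replicate 2 of lcs7 at 2 mM. They did so too without replicate 1 or 3 of lcs7 at 0.3 mM. UGT76B1, whose substrates include salicylic acid, had 421, 419.8 and 598 in lcs7 at 0.3 mM, 52, 13.7 and 47.1 in lcs7 at 2 mM and 7.6, 11.2 and 20.2 in Col-0 (5.30 ± 0.57, adjusted p = 0.000724, or 4.56 with means raised to 20). UGT73D1 and UGT73B4 (differences of 3.53 and 3.17 with means raised to 20) were near background in Col-0 and over 150 in every array of lcs7 at 0.3 mM. Of 22 cytochrome P450 genes 7 rose and 1 fell (median 0.67), against 13.2% of all genes higher and 16.6% lower. The P450 fall did not pass without replicate 2 or 3 of Col-0, replicate 1 of lcs7 at 2 mM, or replicate 2 or 3 of lcs7 at 0.3 mM. CYP71B6 had 2766, 2825 and 2973 in lcs7 at 0.3 mM, 881, 694 and 838 in lcs7 at 2 mM and 963, 1011 and 916 in Col-0 (1.57 ± 0.11, adjusted p = 0.000216). All 4 measured genes of flavonoid and anthocyanin synthesis rose (median 2.50). DFR, dihydroflavonol reductase, had 916, 694 and 1117 in lcs7 at 0.3 mM, 151, 138 and 166 in lcs7 at 2 mM and 148, 152 and 103 in Col-0 (2.75 ± 0.22, adjusted p = 0.000274). UF3GT (2.24 ± 0.33) and AT5MAT (1.51 ± 0.15), which add a sugar and a malonyl group to anthocyanins, rose with AT4G14090 (3.43 ± 0.89). AT4G14090 did not pass without replicate 2 of Col-0 or any 1 lcs7 array at 0.3 mM (adjusted p up to 0.0764).

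The 6 measured genes of the endoplasmic reticulum body, a compartment of Brassicaceae that stores beta-glucosidases against herbivores, all rose (median 2.25). PYK10, its main beta-glucosidase, had 6131, 4473 and 7033 in lcs7 at 0.3 mM, 2469, 2994 and 2576 in lcs7 at 2 mM and 1038, 907 and 1012 in Col-0. The groups formed 3 separate levels, and both steps passed: 1.44 ± 0.18, adjusted p = 0.0111 for the mutation at 2 mM, and 1.11 ± 0.18, adjusted p = 0.00542 for low calcium in lcs7. The jacalin-like lectins JAL33 (2.85 ± 0.25) and JAL22 (1.95 ± 0.19) were already higher at 2 mM (1.60 ± 0.25, adjusted p = 0.0212 and 1.36 ± 0.19, adjusted p = 0.0141). JAL23 was not: it had 1932, 1703 and 2473 in lcs7 at 0.3 mM, 49.4, 36 and 87 in lcs7 at 2 mM and 50.3, 57.8 and 43.6 in Col-0 (5.32 ± 0.32, adjusted p = 0.00012 jointly and 0.10 ± 0.32, adjusted p = 0.92 at 2 mM). NAI2, which forms the bodies, rose by 1.80 ± 0.16 and JAL34 by 1.92 ± 0.21. PYK10 is most abundant in roots. Of the 8 root markers listed 2 were measured, and the other, EXPA7, had mean signals of 19.8 in lcs7 at 0.3 mM and 15.1 in Col-0 (0.39 ± 0.50, adjusted p = 0.614). The part of root tissue in the result was not tested beyond this.

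Genes of protein folding in the endoplasmic reticulum rose as well. Of 15 genes of folding and degradation 8 rose and 1 fell (median 0.38), and all 4 measured chaperone and stress genes of a second, overlapping list rose (median 1.13). BZIP60, the factor switched on by unfolded proteins, had 2896, 1816 and 1967 in lcs7 at 0.3 mM, 1107, 1002 and 1029 in lcs7 at 2 mM and 899, 702 and 782 in Col-0 (1.46 ± 0.19, adjusted p = 0.0015). CRT1b, the calreticulin that binds calcium in the lumen, had 3201, 3709.8 and 3453 in lcs7 at 0.3 mM, 1613, 1575 and 1727 in lcs7 at 2 mM and 1608, 1839 and 1547 in Col-0 (1.05 ± 0.11, adjusted p = 0.000582). ATERDJ3B, a partner of the lumenal Hsp70, had 2578, 2875 and 2894 in lcs7 at 0.3 mM, 1233, 1043 and 1179.5 in lcs7 at 2 mM and 1215, 1250.0 and 1154 in Col-0, and rose (adjusted p = 0.000327). The smaller rises were PDIL5-1 (0.67 ± 0.10), ATERDJ2B (0.44 ± 0.08), DER1 (0.43 ± 0.10), BZIP28 (0.38 ± 0.11) and ATERDJ2A (0.31 ± 0.09), and DER2.1 fell (-0.68 ± 0.09, adjusted p = 0.00192). For none of BZIP60, CRT1b and ATERDJ3B did lcs7 and Col-0 differ past the test at 2 mM (adjusted p = 0.365, 0.951 and 0.801). With replicate 2 of Col-0 or replicate 2 or 3 of lcs7 at 0.3 mM left out, 5 of the 8 rises passed.

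**Figure D4:**
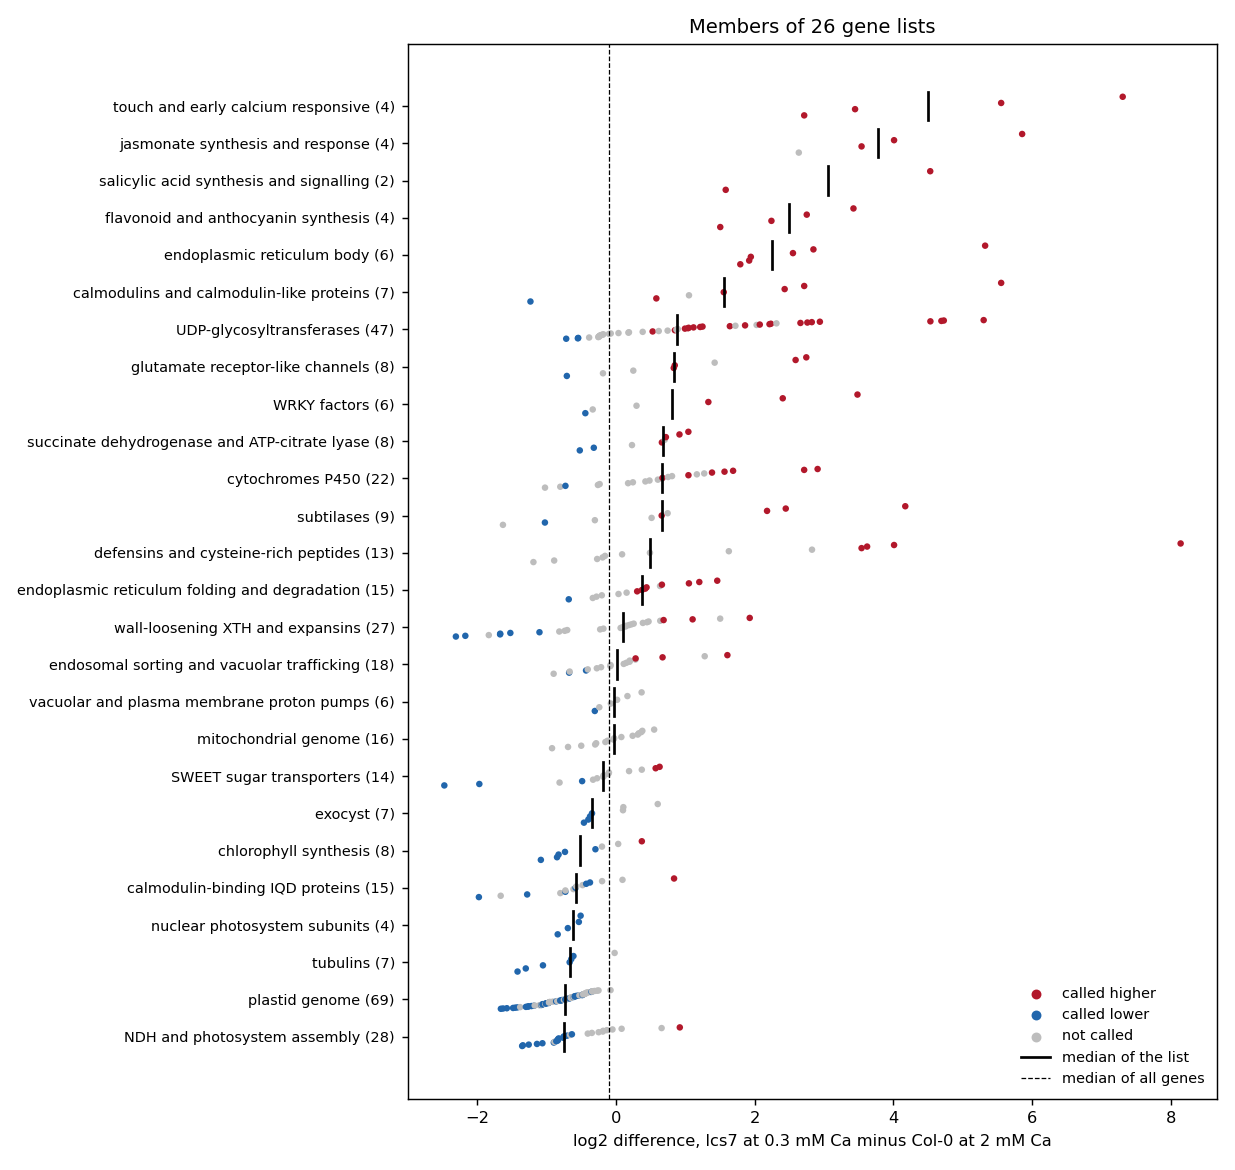
Points are the measured members of 26 gene lists (number of members in parentheses) by their log2 difference of lcs7 at 0.3 mM minus Col-0 at 2 mM calcium, coloured by whether they were called; a gene can stand in more than 1 list. Bars mark the median of each list and the dashed line that of all genes, -0.10. Lists of touch, calmodulin-like, defence and endoplasmic reticulum genes have medians right of the line, and those of the plastid, photosystems, tubulins and chlorophyll left of it.

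Genes of the plastid genome fell. All 69 measured genes of the plastid genome had a negative difference (median -0.73), and 35 of them (50.7%, against 16.6% of all genes) passed. The photosynthetic complexes held most of these: 22 of 32 genes of photosystems, cytochrome b6f and ATP synthase passed, against 2 of 19 genes of the plastid ribosome and RNA polymerase. By complex the median was -1.07 for photosystem I (4 of 5 passed), -1.12 for ATP synthase (5 of 6), -0.80 for photosystem II (11 of 15), -0.72 for cytochrome b6f (2 of 6) and -0.56 for the NDH complex (6 of 10). The 8 other genes, rbcL among them, had a median of -0.99 (5 passed). The median was -0.58 for the large ribosomal subunit (2 of 7), -0.58 for the small subunit (none of 8) and -0.46 for the polymerase (none of 4). The polymerase and ribosome genes lay below 0 too, and a difference between these classes was not tested. psaA, a core protein of photosystem I, had 84.1, 109 and 134 in lcs7 at 0.3 mM, 309, 191 and 267 in lcs7 at 2 mM and 293, 356 and 367 in Col-0 (-1.66 ± 0.23, adjusted p = 0.00209). psbA, the D1 protein of photosystem II, had 1809, 1464 and 1658 in lcs7 at 0.3 mM, 3129, 3220.0 and 2824 in lcs7 at 2 mM and 3368, 3269 and 3521 in Col-0 (-1.05 ± 0.11, adjusted p = 0.000655). rbcL, the large subunit of Rubisco, was lower with more spread: 1435, 1709 and 3189.6 in lcs7 at 0.3 mM, 3503, 2295 and 2442 in lcs7 at 2 mM, and 3433, 3649 and 3359 in Col-0 (-0.81 ± 0.31, adjusted p = 0.0891). At 2 mM calcium the median difference of lcs7 minus Col-0 over the 69 genes was -0.07, and none passed. The count of falls moved with single arrays: without replicate 2 of Col-0 it was 20, without replicate 3 of Col-0 it was 17, and for lcs7 at 0.3 mM it was 19 without replicate 1 and 16 without replicate 2. None of 16 mitochondrial genes passed in limma (0 at an unadjusted p under 0.05; median -0.03).

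**Figure D5:**
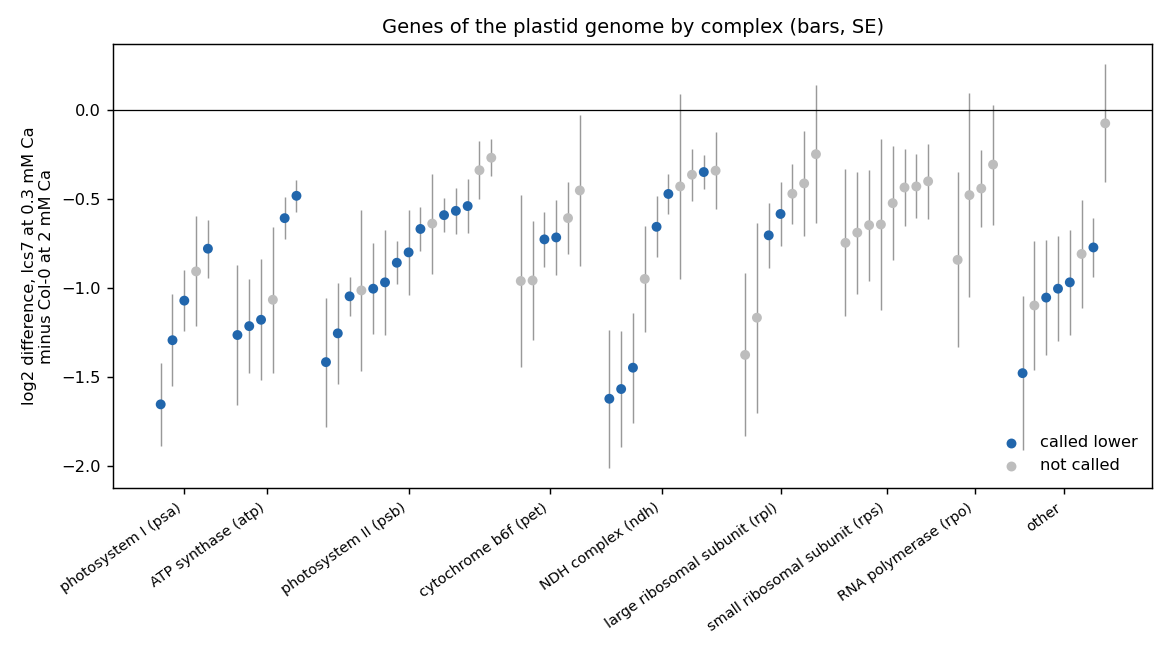
Each point is 1 of the 69 measured genes of the plastid genome, grouped by complex, with its log2 difference of lcs7 at 0.3 mM minus Col-0 at 2 mM calcium and its SE (n = 3 arrays per group). All points lie below 0, the lowest at -1.66 (psaA), and called genes are found in every group but the small ribosomal subunit and the polymerase.

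Nuclear genes of the chloroplast fell alongside. All 4 measured nuclear photosystem subunits fell (median -0.61): PSAN had 9904, 8574 and 8667 in lcs7 at 0.3 mM, 18013, 20685 and 17537 in lcs7 at 2 mM and 15030.4, 16447 and 16935 in Col-0 (-0.84 ± 0.11, adjusted p = 0.00163). PSBY (-0.69 ± 0.09), PSAE-1 (-0.53 ± 0.10) and PSBW (-0.51 ± 0.11) were the others, and under quantile normalization 2 of the 4 passed. Of 28 genes for NDH subunits, photosystem assembly and plastid RNA processing 16 fell and 1 rose (median -0.75), the rise not passing without replicate 1 or 3 of Col-0 or replicate 2 or 3 of lcs7 at 0.3 mM. LPA2, an assembly factor of photosystem II, had 1129.5, 1089 and 1010.4 in lcs7 at 0.3 mM, 2213, 2640.1 and 2132 in lcs7 at 2 mM and 2788, 2637 and 2790.3 in Col-0 (-1.35 ± 0.11, adjusted p = 0.000288). The NDH subunits NdhL (-1.34 ± 0.13) and NdhN (-1.13 ± 0.12) fell by similar amounts. CYTC6A, a cytochrome of the thylakoid lumen, was among the 15 largest falls. It had 371, 429 and 383 in lcs7 at 0.3 mM, 986, 1209 and 1039.7 in lcs7 at 2 mM and 2872, 2710.2 and 2881 in Col-0, 3 separate levels with nearly equal steps (-1.39 ± 0.11, adjusted p = 0.00182 and -1.45 ± 0.11, adjusted p = 0.000639). RCA, Rubisco activase and the 1 measured shoot marker of 9 listed, had 17548, 17343 and 17245 in lcs7 at 0.3 mM, 23574, 25509.7 and 23117 in lcs7 at 2 mM and 24418, 22830.1 and 22135 in Col-0 (-0.41 ± 0.09, adjusted p = 0.0105, not past the test under quantile normalization).

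In chlorophyll synthesis 5 of 8 measured genes fell and 1 rose (median -0.51). CHLM, which methylates magnesium protoporphyrin, had 4957, 4855 and 4613 in lcs7 at 0.3 mM, 9205, 9799.9 and 9029 in lcs7 at 2 mM and 9935, 10203 and 10320.2 in Col-0 (-1.08 ± 0.08, adjusted p = 0.00025). PORB, the light-dependent protochlorophyllide reductase, fell by 0.82 and AT1G74470, a geranylgeranyl reductase, by 0.85 on the log2 scale. HEME1 (-0.73 ± 0.09, adjusted p = 0.00117) fell too, and GSA1 at the entry of the pathway rose (0.38 ± 0.12, adjusted p = 0.0478). The rise of GSA1 did not pass without replicate 1 or 3 of Col-0, replicate 2 or 3 of lcs7 at 2 mM, or any 1 lcs7 array at 0.3 mM. CHLI2, a magnesium chelatase subunit, had 868, 856 and 825 in lcs7 at 0.3 mM, 1322, 1455 and 1301 in lcs7 at 2 mM and 812, 869 and 808 in Col-0. It was higher in lcs7 than in Col-0 at 2 mM (0.71 ± 0.09, adjusted p = 0.011) and fell with low calcium in lcs7 (-0.68 ± 0.09, adjusted p = 0.00247). The joint difference was 0.04 ± 0.09, adjusted p = 0.806. The 3 measured antenna genes all encode CP29 of photosystem II. LHCB4.3 rose (1.73 ± 0.18, adjusted p = 0.000643), and LHCB4.1 (-0.48 ± 0.09, adjusted p = 0.00712) and LHCB4.2 (-0.78 ± 0.11, adjusted p = 0.00208) fell. LHCB4.2 had 4393, 4691 and 4576 in lcs7 at 0.3 mM, 14129.8, 17690.2 and 14841 in lcs7 at 2 mM and 7777, 8189.5 and 7431 in Col-0, so that the lcs7 groups lay on either side of the wild type (0.99 ± 0.11, adjusted p = 0.00676 at 2 mM).

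Tubulin genes fell. Of 7 tubulins, the subunits of microtubules, 6 fell and none rose (median -0.66). TUB5 had 1250.4, 1319.5 and 1267 in lcs7 at 0.3 mM, 3236, 3872 and 3405 in lcs7 at 2 mM and 2931, 3053 and 3459 in Col-0 (-1.30 ± 0.11, adjusted p = 0.000316). TUB1 (-1.41 ± 0.17) fell in part already at 2 mM (-0.90 ± 0.17, adjusted p = 0.0452), and TUA1 (-0.02 ± 0.13, adjusted p = 0.948) did not pass. Of 27 wall-loosening genes (xyloglucan hydrolases and expansins) 6 fell and 3 rose, near the shares of all genes (16.6% and 13.2%), with a median of 0.10. EXLA1, an expansin-like protein, had 1696, 1554 and 2075 in lcs7 at 0.3 mM, 3950.3, 9491 and 7154 in lcs7 at 2 mM and 8089, 7355 and 8327 in Col-0 (-2.17 ± 0.30, adjusted p = 0.00199). XTH33 (-2.30 ± 0.59, adjusted p = 0.0234) fell and XTH29 (1.93 ± 0.35, adjusted p = 0.00584) rose. Without replicate 3 of Col-0, or without replicate 1 or 2 of lcs7 at 0.3 mM, 3 of the 6 falls passed. GAUT15, a galacturonosyltransferase of pectin synthesis, fell (-0.89 ± 0.13, adjusted p = 0.00235). RALFL24, a secreted signal peptide, had 398, 444 and 413 in lcs7 at 0.3 mM, 959, 965 and 796 in lcs7 at 2 mM and 1042, 1198 and 1240.4 in Col-0 (-1.47 ± 0.12, adjusted p = 0.00029). In auxin response GH3.3, which conjugates auxin, rose (1.71 ± 0.20, adjusted p = 0.000978), and the repressor gene IAA18 fell (-1.27 ± 0.17, adjusted p = 0.00177). Of 11 genes of auxin response listed by symbol 2 rose and 2 fell, near the shares of all genes (13.2% and 16.6%). Without any 1 Col-0 array, replicate 3 of lcs7 at 2 mM or replicate 2 of lcs7 at 0.3 mM, 1 of each passed. AT3G53250 (SAUR57), with only a locus name here, was not in this list and fell (-3.42 with means raised to 20).

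The largest falls were mostly genes with only a locus name. AT3G28320 had 4.3, 23 and 13.2 in lcs7 at 0.3 mM, 66.4, 16 and 11.9 in lcs7 at 2 mM and 653, 612 and 853 in Col-0. With means raised to 20 the joint difference was -5.13 (adjusted p = 0.00156 as measured), and the lcs7 groups did not differ past the test (-1.09 ± 0.79, adjusted p = 0.38). AT5G44850 shared that pattern, with 33.4, 33.6 and 50 in lcs7 at 0.3 mM, 69, 53.1 and 42.8 in lcs7 at 2 mM and 307, 254 and 282 in Col-0 (-2.38 ± 0.23, adjusted p = 0.00336 at 2 mM). The other large falls moved with calcium in lcs7. AT3G19850 had 186, 203 and 238 in lcs7 at 0.3 mM, 1041, 1430.0 and 1089 in lcs7 at 2 mM and 1273, 1424 and 1559 in Col-0 (-2.77 ± 0.16, adjusted p = 0.000115 jointly and -0.27 ± 0.16, adjusted p = 0.477 at 2 mM). AT5G03120 (-2.87 ± 0.30) and AT5G48490 (-2.72 ± 0.26) were alike, each with 2 mM arrays of lcs7 overlapping those of Col-0. AT1G12080 had 57.7, 60.6 and 24.5 in lcs7 at 0.3 mM, 217, 260.3 and 218 in lcs7 at 2 mM and 677, 663 and 738 in Col-0 (-3.97 ± 0.33, adjusted p = 0.000313), 3 levels of which the lower step passed (-2.39 ± 0.33, adjusted p = 0.00316) and the upper did not (-1.58 ± 0.33, adjusted p = 0.0603). Named genes among these falls were BZIP34, a bZIP transcription factor (-3.59 with means raised to 20, adjusted p = 0.00318 as measured), and AT3G53250, the auxin-responsive SAUR57 (-3.42 and 0.0061 likewise), both under 30 in every array of lcs7 at 0.3 mM. The remaining falls, AT4G25780, AT1G13650, AT5G57760, AT5G45310, AT1G49210 and AT2G41330, ranged from -3.66 to -2.73. Of these AT5G45310 was already lower at 2 mM (-1.21 ± 0.20, adjusted p = 0.0263). AT4G25780 differed there by -2.03 ± 0.46, adjusted p = 0.08, which did not pass, and by -1.63 ± 0.46, adjusted p = 0.0438 for low calcium in lcs7.

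Genes of the list for vacuolar and plasma membrane proton pumps changed little. Of 6 members measured 1 fell and none rose (median -0.02): VHA-A2, a tonoplast subunit of the proton ATPase, had 676, 739 and 670.1 in lcs7 at 0.3 mM, 896, 865 and 851 in lcs7 at 2 mM and 821, 839.5 and 909 in Col-0 (-0.30 ± 0.09, adjusted p = 0.0393). This call was lost when any 1 of the 9 arrays was left out. VHA-A3 (-0.24 ± 0.12, adjusted p = 0.199) and VHA-A1 (0.37 ± 0.15, adjusted p = 0.101) did not pass. Of 12 tonoplast sugar transporters and cation/proton exchangers 2 rose and 3 fell, against 13.2% of all genes higher and 16.6% lower. Of these calls, 1 rise was lost without replicate 1, 2 or 3 of Col-0 or replicate 1 or 2 of lcs7 at 0.3 mM. TMT1, which loads sugars into the vacuole, had 744, 759 and 806 in lcs7 at 0.3 mM, 1373, 1008 and 1114 in lcs7 at 2 mM and 1283, 1183 and 1418 in Col-0 (-0.75 ± 0.14, adjusted p = 0.0059), and TMT2 fell by 0.62 on the log2 scale. CHX16, a cation/proton exchanger, rose (2.42 ± 0.39, adjusted p = 0.00366), as did SWEET17, a fructose transporter of the tonoplast (0.58 ± 0.16, adjusted p = 0.0293). SWEET10 (-2.47 ± 0.32, adjusted p = 0.00155) and SWEET4 (-1.97 ± 0.26, adjusted p = 0.00166), sugar exporters, fell to signals under 60 in every array of lcs7 at 0.3 mM. SWEET1 rose (0.63 ± 0.13, adjusted p = 0.0091). Of 14 SWEET genes measured 2 rose and 3 fell, against 13.2% of all genes higher and 16.6% lower. PPDK, which releases pyrophosphate when it makes phosphoenolpyruvate, rose: 1343, 1251 and 1515 in lcs7 at 0.3 mM, 792, 596 and 862 in lcs7 at 2 mM, and 769, 481 and 542 in Col-0 (1.22 ± 0.21, adjusted p = 0.00497). In trafficking to the vacuole 3 of 18 genes rose and 2 fell, near the shares of all genes (13.2% and 16.6%), and these were 2 and 1 without replicate 2 or 3 of Col-0 or replicate 2 or 3 of lcs7 at 0.3 mM. VPS2.2, of the ESCRT-III sorting complex, had 376, 532 and 448 in lcs7 at 0.3 mM, 392, 338 and 409.8 in lcs7 at 2 mM and 149, 144 and 147 in Col-0 (1.61 ± 0.14, adjusted p = 0.000403 jointly and 1.37 ± 0.14, adjusted p = 0.00541 at 2 mM). Of 7 exocyst subunits, which tether secretory vesicles, 4 fell (against 16.6% of all genes), with SEC15B at -0.46 ± 0.11 and SEC5A at -0.34 ± 0.10. From 1 to 2 of these 4 passed without replicate 1, 2 or 3 of lcs7 at 0.3 mM, replicate 3 of lcs7 at 2 mM or replicate 3 of Col-0.

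Some genes differed between lcs7 and Col-0 at 2 mM and moved back with low calcium in lcs7. The joint difference then held the sum of both steps. BHLH101, a factor of the iron deficiency response, had 32.2, 50 and 27.5 in lcs7 at 0.3 mM, 6.6, 4.9 and 1.9 in lcs7 at 2 mM and 44.2, 41.1 and 32.9 in Col-0. Low against high calcium in lcs7 gave 3.16 ± 0.46, adjusted p = 0.00374, and lcs7 minus Col-0 at 2 mM gave -3.31 ± 0.46, adjusted p = 0.0147. Jointly the difference was -0.14 ± 0.46, adjusted p = 0.854. Signals under 20 in lcs7 at 2 mM leave the sizes of the steps uncertain. COR15A, a chloroplast protein of cold acclimation, had 987, 1202 and 1033 in lcs7 at 0.3 mM, 5796, 5264 and 2792 in lcs7 at 2 mM and 606, 1143 and 766 in Col-0, and 0.40 ± 0.33, adjusted p = 0.414 jointly, beside 2.44 ± 0.33, adjusted p = 0.0135 at 2 mM. COR15B had 1439, 2010.0 and 1668 in lcs7 at 0.3 mM, 5896, 6097 and 4475 in lcs7 at 2 mM and 2776, 4888 and 3417 in Col-0, and fell jointly (-1.09 ± 0.24, adjusted p = 0.0133), while its difference at 2 mM did not pass (0.60 ± 0.24, adjusted p = 0.292). Other cold-response genes did not share this pattern. COR47, a dehydrin, had 2007, 1509 and 1529 in lcs7 at 0.3 mM, 7276, 8467 and 7432 in lcs7 at 2 mM and 11232, 6872 and 8857 in Col-0 (-2.40 ± 0.20, adjusted p = 0.00032 jointly and -0.19 ± 0.20, adjusted p = 0.706 at 2 mM). The dehydrin LTI30 rose jointly (1.21 ± 0.27, adjusted p = 0.0133). Its difference at 2 mM was nearly as large but did not pass (1.18 ± 0.27, adjusted p = 0.0809). Low calcium in lcs7 gave 0.04 ± 0.27, adjusted p = 0.945. GSTU26, a glutathione transferase, had 79, 94.5 and 94.3 in lcs7 at 0.3 mM, 152, 166 and 127 in lcs7 at 2 mM and 44.2, 70.9 and 48.7 in Col-0: a joint rise of 0.74 ± 0.20, adjusted p = 0.03, beside 1.47 ± 0.20, adjusted p = 0.0141 at 2 mM and -0.73 ± 0.20, adjusted p = 0.0393 for low calcium in lcs7. The joint call of GSTU26 was lost without replicate 1 or 3 of Col-0 or replicate 2 or 3 of lcs7 at 0.3 mM (adjusted p up to 0.0923). The 2 steps share the lcs7 arrays at 2 mM calcium, so an error in those arrays moves them in opposite directions.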

How the data were processed

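Biotin-labelled RNA of shoots was hybridised to Affymetrix ATH1 arrays, 3 biological replicates in each of 4 groups. The deposited values are linear intensities, 1 per probe set and array, between 0.1 and 34591.8. Per the submitters' processing notes the authors used RMA and oligo 1.32.0, but the deposited intensities have trimmed means of 495.4 to 496.0 on every array (2% trimmed), so how they were summarised is not settled and the order of dim genes is uncertain. Array medians lay between 161.3 and 187.6, and 17.1 to 19.3% of values were under 20. The number of arrays limits the precision. Of 22746 probe sets 13513 named 1 gene in the platform annotation, 503 several, and the rest none. 13356 genes were kept, 11799 of them by locus name only, and 13286 matched RefSeq's TAIR10.1 table, used for names and chromosomes. limma 3.58.1 (R 4.3.3) was fitted to log2 intensities of 9 arrays, with 1 mean per group, empirical Bayes moderation and Benjamini-Hochberg adjustment over all 13356 genes, with calls made below an adjusted p of 0.05. Error terms are SEs from this fit. P-values set each group difference against the moderated spread between replicate arrays in this fit. On simulated data with 200 changed genes among 13356 the joint comparison recovered 32% of 2-fold and 74% of 4-fold changes. Far more genes passed in the measured data, which shifts the limit set by the adjustment, so these shares do not describe that comparison. The genes named were the 15 largest rises and the 15 largest falls (means under 20 raised to 20), taken from calls with no overlap between arrays and a signal of at least 100 in the higher group. Up to 4 called members of each gene list were added, or, in lists with no call, the 2 of smallest p. Other list members were named after their values were seen, to account for a list (LCR68, LCR69, CHLI2, COR15A, psbA, rbcL, TUA1, VHA-A1, VHA-A3, JMT, EXPA7 and the smaller changes among others). Of 65 gene lists 56 had a measured member. Family lists were matched by name patterns, so members carrying only a locus name could be missed. The members and lists were chosen with earlier results of these data known, and 20 of the lists were written after the array's annotation was seen. Replicate numbers did not pair the arrays. Alternatives covered moderation, array weights, normalization, filters and offsets for dim genes, probe set choice, a 2-fold limit, the arrays fitted, the replicate block and leaving out each array.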

Additional observations from a re-analysis of the deposited data

How the results depend on the processing

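The joint count of 3983 genes stayed within 1.5 times under 23 of 24 alternatives, and requiring a 2-fold change gave 1602. The count of 347 for lcs7 against Col-0 at 2 mM stayed within 1.5 times under 9 of 24. It was 770 with an intensity trend, 740 without the 40% dimmest genes, 789 with a signal of at least 100, 662 with an offset of 50, 602 with signals under 20 raised to 20, 202 with the 2-fold limit and 83 with 6 arrays. The cause was not tested. The count for low calcium in lcs7, 2936, was 1101 with the 2-fold limit. With 1 array left out the counts ranged over 2980 to 3939 jointly, 119 to 287 at 2 mM and 1856 to 2796 for low calcium in lcs7. Correlations of same-numbered arrays' deviations lay between -0.12 and 0.13, so the numbers were not taken as pairs, and the fit with the replicate block called 3353 genes jointly, 107 at 2 mM and 2156 for low calcium in lcs7. Under that block 22 plastid genes fell. Of 188 named genes that were called, 149 passed with each of the 9 arrays left out, and 114 under every alternative that tested them. BHLH101, which did not pass jointly, turned to 0.037 without replicate 3 of lcs7 at 0.3 mM (adjusted p = 0.973), and ranged down to -0.394 without replicate 2 of lcs7 at 0.3 mM. Without the 40% dimmest genes 11 glycosyltransferase rises, 2 touch-list rises and 2 anthocyanin rises passed. Dim members were left out there and not tested, and all 161 named calls that were tested still passed. Signals under 20 limit the measured size of the largest changes.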

Other observations

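Several smaller gene groups held both rises and falls in lcs7 at 0.3 mM calcium against Col-0 at 2 mM calcium. Of 8 autophagy genes 2 rose and 2 fell (against 13.2% and 16.6% of all genes), all of the ATG8 family, whose proteins coat the autophagosome: ATG8B (0.40 ± 0.13, adjusted p = 0.0488) and ATG8D (0.35 ± 0.10, adjusted p = 0.0397) rose, and ATG8C (-0.41 ± 0.11, adjusted p = 0.0268) and ATG8E (-0.89 ± 0.19, adjusted p = 0.0106) fell. Neither rise passed without any 1 Col-0 array, replicate 1 of lcs7 at 2 mM, or replicate 1 or 2 of lcs7 at 0.3 mM. The fall of ATG8C was lost without replicate 1 or 2 of Col-0 or replicate 2 or 3 of lcs7 at 0.3 mM (adjusted p up to 0.0904). Of 8 genes of succinate dehydrogenase and ATP-citrate lyase 4 rose and 2 fell, with 1 fall left without any 1 array of the compared groups. SDH1-1, the flavoprotein of succinate dehydrogenase in the mitochondrial membrane, had 1973, 2590.0 and 2654 in lcs7 at 0.3 mM and 1383, 1067 and 1042 in Col-0 at 2 mM (1.05 ± 0.17, adjusted p = 0.00339), and SDH2-1 rose by 0.92 ± 0.12. With the probe sets of SDH2-1 averaged, its difference was 0.126 (adjusted p = 0.83) and did not pass. Among 20 beta-glucosidases 7 rose and 3 fell (against 13.2% and 16.6% of all genes), with a fall of BGLU33 at -1.67 ± 0.27. BGLU46 rose, with 390.1, 402 and 605 in lcs7 at 0.3 mM and 141, 112 and 76.6 in Col-0 at 2 mM (adjusted p = 0.00134). Of 29 serine carboxypeptidase-like genes 4 rose and 6 fell, near the shares of all genes (13.2% and 16.6%).

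Single members of other families changed as well. AGL87, a MADS-box factor, had 314, 265 and 282 in lcs7 at 0.3 mM and 1225, 1149 and 1295 in Col-0 at 2 mM (-2.09 ± 0.13, adjusted p = 0.000138). TET10, a tetraspanin of the plasma membrane, had 257, 285 and 373 in lcs7 at 0.3 mM and 813, 989.7 and 1211 in Col-0 at 2 mM (-1.72 ± 0.20, adjusted p = 0.000926). TBL45, of a family that acetylates wall polysaccharides, fell (-1.12 ± 0.14, adjusted p = 0.00115). UBC18, a ubiquitin-conjugating enzyme, rose by 0.75 ± 0.10, adjusted p = 0.00137, nearly the value at 2 mM calcium (0.72 ± 0.10, adjusted p = 0.0133). None of 12 ubiquitin-specific proteases passed in limma, and 1 had an unadjusted p under 0.05. None of 4 vacuolar processing enzymes passed, and none of these had an unadjusted p under 0.05.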
